A study of Arabidopsis thaliana with 12 samples.

Results

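The 76 genes described here are Arabidopsis thaliana transcripts whose array signal was higher at high iron than in control in each of 3 sets of samples. They were chosen by measured values of these same arrays. Each has a probe that the platform annotation gives to a single gene, its control level lies outside the brightest 10 percent of probes, and its high iron minus control difference exceeded 0.3 on the log2 scale in samples 1 and 2, in samples 3 and 4 and in samples 5 and 6. Of 692 single-gene probes on an array of 3439 probes, 640 lay under the brightness limit and 85 of these met the difference, which is 13.3%. Another 9 genes that met it are left out here by name, which gives the 76. Because the difference between the groups chose the genes, it is given below as a description and carries no test.

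The high iron group held 6 total RNA samples from wild-type plants of the ecotype Columbia-0 grown with iron in excess, and the control group held 6 from the same wild type at normal iron. The sources used here give no tissue, plant age, iron dose or duration, and do not say whether samples of a group came from separate plants, so any spread quoted may be technical. Iron is a cofactor of haem and of iron-sulphur clusters and is needed in large amounts by the photosynthetic apparatus of plastids. Free iron also reacts with hydrogen peroxide to give hydroxyl radicals, which attack lipids, proteins and nucleic acids. Plants therefore store surplus iron in ferritin, mostly in plastids, and keep enzymes such as superoxide dismutases that remove reactive oxygen. Of 35 symbols of genes for iron uptake, transport and storage, 33 were found in the gene table, and none of these matched a single-gene probe, so these genes are not analysed here.

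Each array gave 1 intensity per probe, between 0 and 100. As the RNA came from many cells at once, fewer cells of a type and less RNA per cell cannot be told apart. Array medians lay between 0.352 and 0.446 at high iron and between 0.555 and 0.618 in control, a gap that quantile normalization removes. All levels below are quantile-normalized intensities unless another scale is named, with values under 0.106 raised to that floor, and all changes are differences of their log2 values. Samples of a set resembled each other: inside a set their differences from the group mean had correlations of 0.56 to 0.82 over all probes, and across sets of -0.70 to -0.25. Differences from a mean of the same samples cancel out within a group, so the negative values across sets are in part built in. Because samples of a set resembled each other, each change is given as the mean of the 3 set changes with the SD between the sets (n = 3). Of the leaf markers with a probe of their own, PSAN and PSBW had mean control levels of 6.69 and 36.2 times the array median, and none of the root, seed and flower marker symbols was matched to a single-gene probe.

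The mean change of the 76 genes had a median of 0.69 and ran between 0.36 and 1.30, or between 1.28-fold and 2.47-fold. At least 2-fold were 9 genes, 51 lay between 1.5-fold and 2-fold, and 16 lay under 1.5-fold. The median change of all 640 single-gene probes under the brightness limit was 0.00. The SD between the set changes of a gene had a median of 0.19 and ran between 0.03 and 0.71, so the genes ranged from nearly equal changes in the 3 sets to widely different ones. Set changes lay within 0.2 of each other in 14 genes and more than 1 apart in 6.

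In samples 3 and 4 the median change of the 76 genes was 0.80, against 0.62 in samples 1 and 2 and 0.64 in samples 5 and 6. Samples 3 and 4 gave the largest of the 3 changes in 45 genes, samples 5 and 6 in 21 and samples 1 and 2 in 10. That first share, 59.2%, is close to the 57.1% of all probes on the array that met the same difference. The changes of all probes were also wider in samples 3 and 4, with an SD of 0.70, against 0.51 in samples 1 and 2 and 0.53 in samples 5 and 6. The 2 samples inside a set differed by a median of 0.10 in high iron and 0.12 in control for the 76 genes, and by 0.13 in high iron and 0.10 in control for the single-gene probes that did not meet the difference.

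**Figure D1:**
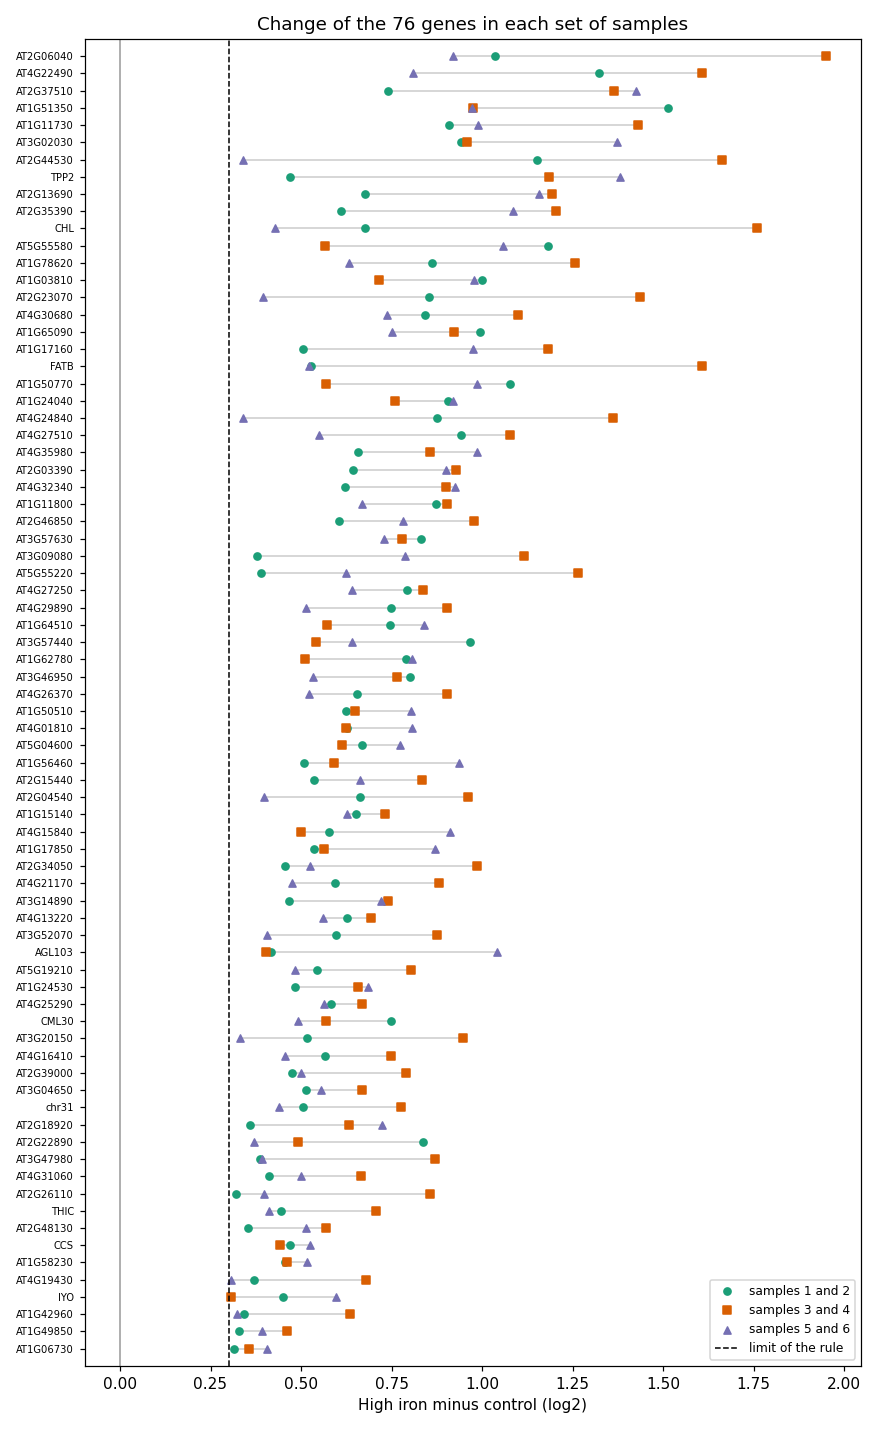
Change of each of the 76 genes (rows, largest mean change at the top) as high iron minus control on the log2 scale, with a circle for samples 1 and 2, a square for samples 3 and 4 and a triangle for samples 5 and 6. Grey bars join the 3 changes of a gene, and the dashed line marks the limit of 0.3 that every point passes by construction. The squares are the rightmost symbol in 45 genes.

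In 43 of the 76 genes all 6 high iron values lay above all 6 control values, and in 33 the groups overlapped. Over the 640 single-gene probes under the brightness limit 10.2% had such non-overlapping higher values, and nothing is read from this, as the rule used the same contrast. In 71 genes the high iron sample was above the control sample of the same number in all 6 pairs, a pattern found in 21.7% of the 640 probes. The exceptions were AT2G44530, AT3G20150, AT5G55220, AT1G62780 and AT1G42960, each higher in 5 of 6 pairs. In the last 3 of these the pair that was not higher lay at the floor in both samples.

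The gene with the largest mean change was AT2G06040, with intensities between 0.311 and 0.533 (median 0.366) in high iron samples and between 0.124 and 0.195 (median 0.158) in control samples. The groups did not overlap, and high iron samples 3 and 4 were the highest. Its change was 1.30 ± 0.56 (SD, n = 3 sets), with 1.95 in samples 3 and 4 against 1.04 and 0.92 in the other sets. AT4G22490 followed, with 0.241 to 0.452 (median 0.399) in high iron samples and 0.137 to 0.1697 (median 0.152) in control samples, a change of 1.25 ± 0.40. Its groups did not overlap either, and its lowest high iron samples were 5 and 6.

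AT2G37510 was far brighter than these on its own probe, with 2.11 to 2.42 (median 2.16) in high iron samples and 0.789 to 1.47 (median 0.843) in control samples. The high iron values were close together, whereas control samples 1 and 2 stood well above the other 4 control samples, and the change was 1.18 ± 0.38. AT1G51350 had 0.886 to 1.18 (median 1.03) in high iron samples and 0.311 to 0.663 (median 0.479) in control samples. Its change of 1.15 ± 0.31 was largest in samples 1 and 2, where control was lowest.

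In AT1G11730, 5 of the 6 control values lay at the floor, control sample 3 stood at 0.137, and the high iron values ran between 0.173 and 0.376 (median 0.220). The change of 1.11 ± 0.28 therefore depends on where the floor is set. AT3G02030 had 0.205 to 0.370 (median 0.328) in high iron samples and 0.113 to 0.175 (median 0.142) in control samples, without overlap, and a change of 1.09 ± 0.24. AT2G44530 had 0.191 to 0.425 (median 0.288) in high iron samples and 0.106 to 0.203 (median 0.120) in control samples. Its control samples 1 and 2 lay at the floor, so the change of 1.15 in that set also depends on where the floor is set. Here the groups overlapped, because high iron sample 5 was below control samples 5 and 6, and the change of 1.05 ± 0.67 held 1.66 in samples 3 and 4 and 0.34 in samples 5 and 6.

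AT2G13690 had 0.262 to 0.398 (median 0.293) in high iron samples and 0.113 to 0.205 (median 0.156) in control samples, a change of 1.01 ± 0.29 without overlap. AT2G35390 had 0.449 to 0.679 (median 0.583) in high iron samples and a narrow 0.268 to 0.313 (median 0.292) in control samples, a change of 0.97 ± 0.31, also without overlap. TPP2, CHL and AT5G55580 complete the 12 largest changes and are described with the named genes below. Of the 12, 9 had groups that did not overlap (10.2% of the 640 probes under the brightness limit did not, with higher values), and 9 lay in the dimmest 25 percent of probes by control level. With deposited values 4 of the 12 stayed above 0.3 in all 3 sets. On that scale AT2G13690 (-0.13) and AT2G35390 (-0.07) were below 0 in samples 1 and 2. AT3G02030 (-0.01) was below 0 in samples 3 and 4, and AT2G44530 (-0.05) in samples 5 and 6.

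**Figure D2:**
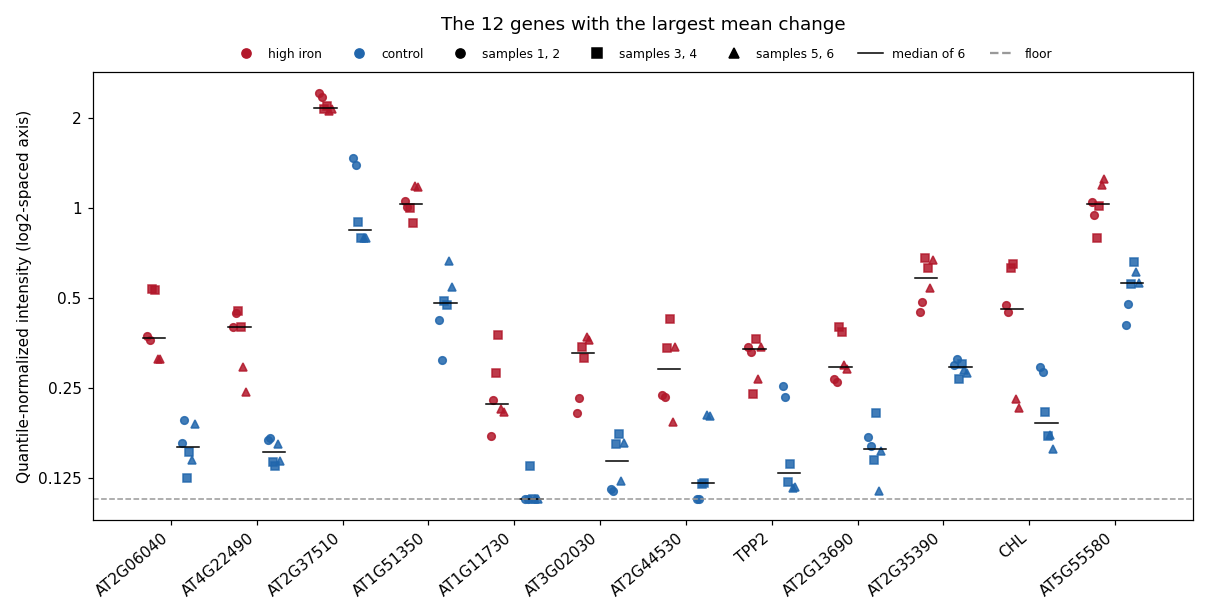
Quantile-normalized intensity (log2-spaced axis) of the 12 genes with the largest mean change, with the 6 high iron samples in red on the left and the 6 control samples in blue on the right of each gene. Symbols mark the 3 sets of samples, black bars the median of 6, and the dashed line the floor of 0.106. The 2 groups overlap in AT2G44530, TPP2 and CHL, and 5 control values of AT1G11730 and 2 of AT2G44530 lie on the floor.

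The gene table gives a descriptive name to 11 of the 76 genes, and these are described by role, for their names and not for their values. The other 65 are known there by locus tag or clone names alone, and no role is given for them. Among the 11 are proteins of the plastid, a copper chaperone, a peptidase, regulators of transcription and chromatin, and a calcium sensor.

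Among plastid proteins, CHL (AT3G47860) is the chloroplastic lipocalin, a protein that protects thylakoid lipids from peroxidation. It had 0.214 to 0.646 (median 0.460) in high iron samples and 0.156 to 0.294 (median 0.190) in control samples. The groups overlapped, since high iron samples 5 and 6 were below control samples 1 and 2. With deposited values the change was 0.37, with -0.01 and -0.03 in samples 1 and 2 and in samples 5 and 6. After quantile normalization the change of 0.95 ± 0.71 was made up of 0.68, 1.76 and 0.43 in the sets in order of their numbers, the widest spread between sets of the 76 genes.

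FATB (AT1G08510), the plastid thioesterase that releases saturated fatty acids from acyl carrier protein for export, had 0.262 to 0.651 (median 0.369) in high iron samples and 0.176 to 0.258 (median 0.202) in control samples. All high iron values were above all control values, high iron samples 3 and 4 stood apart at the top, and the change was 0.88 ± 0.62. AT5G55580, listed as mTERF9, belongs to a family of nucleic acid-binding proteins of plastids and mitochondria. It had 0.790 to 1.24 (median 1.03) in high iron samples and 0.405 to 0.656 (median 0.558) in control samples, a change of 0.93 ± 0.33 that was smallest in samples 3 and 4.

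AT2G23070, listed as CKA4 and CK2 alpha cp, is the plastid form of the catalytic subunit of protein kinase CK2. It had 0.279 to 0.441 (median 0.360) in high iron samples and 0.147 to 0.303 (median 0.162) in control samples. Control samples 5 and 6 were the highest of the control samples, sample 6 lay among the high iron values, and the change was 0.89 ± 0.52. THIC (AT2G29630), the iron-sulphur enzyme that makes the pyrimidine part of thiamin in plastids, had 0.623 to 1.02 (median 0.901) in high iron samples and 0.506 to 0.777 (median 0.577) in control samples. Its groups overlapped because control sample 1 was high and high iron samples 5 and 6 were low, and the change was 0.52 ± 0.16.

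CCS (AT1G12520) is the chaperone that hands copper to copper/zinc superoxide dismutase. It had 0.190 to 0.512 (median 0.327) in high iron samples and 0.113 to 0.403 (median 0.240) in control samples. The sets differed more than the groups did: in both groups samples 1 and 2 were highest and samples 5 and 6 lowest, so the groups overlapped widely. Within the sets the changes were 0.47, 0.44 and 0.52, a mean of 0.48 ± 0.04. With the values as deposited the change was -0.21, so its direction depends on the scaling described below.

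TPP2 (AT4G20850) is tripeptidyl peptidase II, a large peptidase that cuts tripeptides from peptides and, in mammals, works downstream of the proteasome. It had 0.238 to 0.364 (median 0.336) in high iron samples and 0.115 to 0.252 (median 0.130) in control samples. Control samples 1 and 2 were about as high as the lowest high iron samples, and the change of 1.01 ± 0.48 was smallest in that set, at 0.47. With deposited values it was 0.21, and -0.26 in that set.

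Among regulators, AGL103 (AT3G18650), a MADS-box transcription factor, had 0.673 to 0.963 (median 0.7999) in high iron samples and 0.451 to 0.636 (median 0.538) in control samples. The groups did not overlap, and of the change of 0.62 ± 0.37 the largest part, 1.04, came from samples 5 and 6. The chromatin remodeler chr31 (AT1G05490) had 1.11 to 1.63 (median 1.46) in high iron samples and 0.637 to 1.23 (median 1.02) in control samples. Samples 3 and 4 were lowest in both groups, the groups overlapped, and the change was 0.57 ± 0.18. IYO (AT4G38440), or MINIYO, which links RNA polymerase II transcription to the onset of cell differentiation, had 0.426 to 0.626 (median 0.457) in high iron samples and 0.333 to 0.376 (median 0.347) in control samples, with a change of 0.45 ± 0.14. Its groups did not overlap, although in samples 3 and 4 the change of 0.31 was just inside the limit. With deposited values IYO changed by -0.14.

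CML30 (AT2G15680), a calmodulin-like protein of the family of calcium sensors, had 0.931 to 1.32 (median 1.11) in high iron samples and 0.662 to 0.781 (median 0.721) in control samples. The groups did not overlap, and the change was 0.60 ± 0.13. In all, the groups did not overlap in 5 of the 11 genes with a descriptive name. With deposited values only chr31 of the 11 stayed above 0.3 in all 3 sets, and 7 of the 11 were below 0 in at least 1 set.

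**Figure D3:**
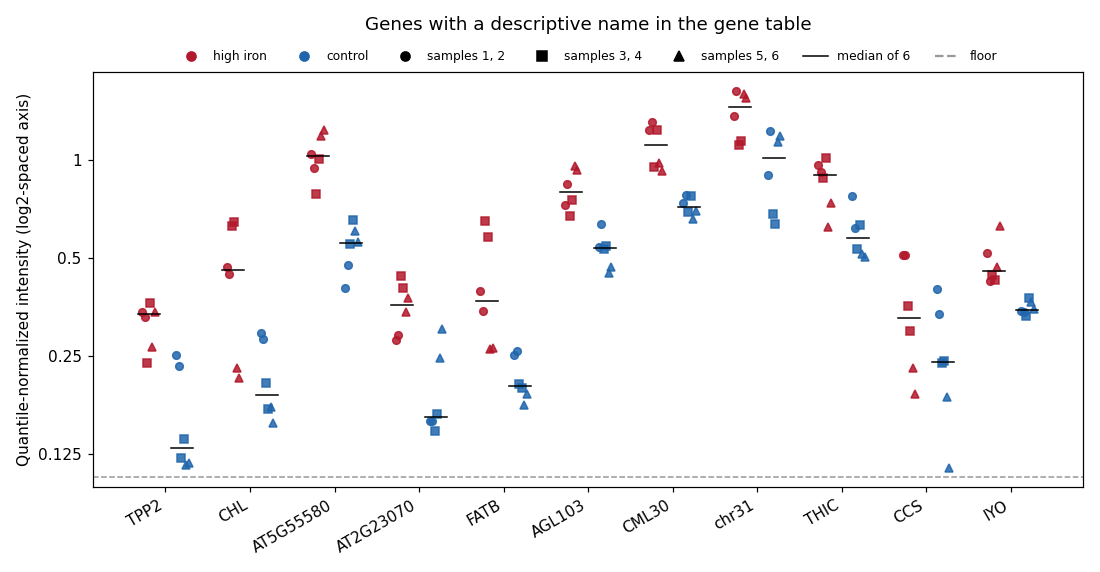
Quantile-normalized intensity (log2-spaced axis) of the 11 genes with a descriptive name, high iron in red on the left and control in blue on the right of each gene, 6 samples each. Symbols mark the sets, black bars the median of 6 and the dashed line the floor. The groups are apart in AT5G55580, FATB, AGL103, CML30 and IYO, and in CCS the sets lie further apart than the groups.

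The names in the gene table also allowed a look at relatives of these genes. A search by words in names misses genes known by locus tag alone. Of 21 word and symbol lists, 10 had a measured single-gene probe and 6 held at least 1 of the 76 genes. CCS stands in the list for protein folding through the word chaperone, although it delivers copper and does not fold proteins at large. The lists held 17 further genes that are neither among the 76 nor left out by name, and their median change was 0.19. In limma over the 12 samples, with adjustment over all 3439 probes, 4 of the 17 were higher and 1 was lower at an adjusted p under 0.05, and 12 did not pass. On the whole array 18.2% of probes were called higher and 15.2% lower. Genes that met the rule are missing from the 17 but count in the whole-array share. Fewer higher calls among the 17 are therefore in part built in, and nothing is read from the comparison. The calls of the list genes are given on the quantile-normalized scale alone. Over the 6 averages of the sets 0 of the 17 passed in either direction. Averaging also leaves fewer values for the fit, and the reason for the loss of calls was not tested. The calls over the 12 samples take each sample as a replicate of its own, although those of a set resembled each other.

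Among MADS-box genes, AGL26 rose by 0.44 (SE 0.10, adjusted p = 0.00496 in limma), whereas AGL54 stood at 0.007 (SE 0.15). AT4G03090, also in the list of transcription regulators, stood at -0.002 (SE 0.13). Among kinases by name, PPDK, the pyruvate orthophosphate dikinase, rose by 0.21 (SE 0.05, adjusted p = 0.0085 in limma), and PRK, the phosphoribulokinase, stood at 0.18 (SE 0.21). The direction of PPDK depends on the scaling: it stood at 0.46 with each array divided by its median and at -0.07 with deposited values. SBPASE of the Calvin cycle rose by 0.48 (SE 0.09, adjusted p = 0.00249 in limma), but missed the rule for the 76 genes. GH9B12, a member of glycosyl hydrolase family 9, rose by 0.35 (SE 0.12, adjusted p = 0.037 in limma), a call that ended when replicate numbers were blocked (adjusted p = 0.0575 in limma). Of the same family, GH9B11, at 0.27 (SE 0.15), and GH9B8, at -0.12 (SE 0.26), did not pass.

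Among redox genes by name, the mitochondrial oxidoreductase ETFQO changed by -0.47 (SE 0.07, adjusted p = 0.00061 in limma), while NTRC, the plastid thioredoxin reductase, stood at 0.23 (SE 0.15). With the replicate number as a block GH9B16 also passed, at -0.43 (adjusted p = 0.0245 in limma), as did PSBW at 0.19 (adjusted p = 0.0105), both of which did not pass without it (adjusted p = 0.138 and 0.116). The peptidase SPPA, beside TPP2 the other gene of protein turnover by name, stood at 0.31 (SE 0.22). The plastid photosystem genes PSBY, at 0.20 (SE 0.14), and LHB1B2, at -0.0018 (SE 0.08), did not pass. The leaf marker PSAN, at -0.08 (SE 0.08), did not pass either. Its change depends on the scaling: PSAN stood at 0.84 with each array divided by its median and at 0.32 with deposited values.

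The 4 genes whose changes were most alike in the 3 sets were AT1G58230, CCS, AT1G06730 and AT3G57630. AT1G58230 had 0.176 to 0.379 (median 0.290) in high iron samples and 0.123 to 0.284 (median 0.211) in control samples, and a change of 0.48 ± 0.03. As in CCS the sets differed more than the groups: samples 1 and 2 were lowest and samples 5 and 6 highest in both. Its direction turned with deposited values, where the change was -0.27, with -0.40, -0.54 and 0.13 in the sets in order of their numbers. AT3G57630 had 0.825 to 1.19 (median 0.881) in high iron samples and 0.466 to 0.679 (median 0.518) in control samples, and a change of 0.78 ± 0.05 without overlap.

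The brightest of the 76 genes in control were AT3G09080, AT2G22890, AT2G26110 and AT2G37510, at 2.28, 2.08, 1.92 and 1.85 times the array median, against a brightness limit of 2.36. AT3G09080 had 1.5004 to 3.47 (median 1.78) in high iron samples and 0.854 to 1.67 (median 1.37) in control samples. High iron samples 3 and 4 were well above all other samples of the gene, the groups overlapped, and the change was 0.76 ± 0.37. AT2G22890 had 1.495 to 1.80 (median 1.70) in high iron samples and 0.860 to 1.33 (median 1.15) in control samples, with a change of 0.57 ± 0.24 and no overlap. AT2G26110 had 1.096 to 2.32 (median 1.33) in high iron samples and 0.647 to 1.24 (median 1.09) in control samples, with overlap and a change of 0.52 ± 0.29. In this gene control sample 6 was far below the other control samples, and the change between the samples numbered 5 was 0.01.

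Just inside the limit lay AT4G19430, IYO and AT1G06730, with lowest set changes of 0.31, 0.31 and 0.31. AT4G19430 had 0.364 to 0.671 (median 0.524) in high iron samples and 0.325 to 0.483 (median 0.378) in control samples. AT1G06730 had 0.642 to 0.952 (median 0.682) in high iron samples and 0.469 to 0.763 (median 0.533) in control samples, and the smallest mean change of the 76, 0.36 ± 0.05. With deposited values AT4G19430 changed by -0.08 and AT1G06730 by -0.04. Just outside lay AT2G38550, AT3G04500 and AT4G00170, with lowest set changes of 0.29, 0.29 and 0.28 and mean changes of 0.45, 0.38 and 0.41. These 3 had median intensities of 0.919, 0.403 and 0.496 in high iron samples and 0.664, 0.299 and 0.383 in control samples.

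The other 49 genes are given by size of change. With a mean change between 0.81 and 0.92 stood AT1G78620, AT1G03810, AT4G30680, AT1G65090, AT1G17160, AT1G50770, AT1G24040, AT4G24840, AT4G27510, AT4G35980, AT2G03390, AT4G32340 and AT1G11800. Their groups did not overlap in 11 of the 13, the exceptions being AT4G24840 and AT4G35980. AT1G24040 was the most even of them, with an SD between sets of 0.09, and AT4G24840 the least even, at 0.51. AT1G03810 was the brightest on its own probe, with medians of 1.73 in high iron samples and 0.971 in control samples.

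Between 0.70 and 0.79 stood AT2G46850, AT5G55220, AT4G27250, AT4G29890, AT1G64510, AT3G57440, AT1G62780 and AT3G46950, and 5 of these 8 had no overlap. AT1G64510 had 0.432 to 0.526 in high iron samples and 0.235 to 0.339 in control samples, and control sample 6 was the lowest. Between 0.66 and 0.69 stood AT4G26370, AT1G50510, AT4G01810, AT5G04600, AT1G56460, AT2G15440, AT2G04540, AT1G15140, AT4G15840, AT1G17850 and AT2G34050, with no overlap in 5 of 11. AT1G15140 was the most even of these, at an SD between sets of 0.06.

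Between 0.60 and 0.65 stood AT4G21170, AT3G14890, AT4G13220, AT3G52070, AT5G19210, AT1G24530 and AT4G25290, and only AT1G24530 and AT4G25290 of these 7 overlapped. The smallest changes among the 49, between 0.39 and 0.60, were those of AT3G20150, AT4G16410, AT2G39000, AT3G04650, AT2G18920, AT3G47980, AT4G31060, AT2G48130, AT1G42960 and AT1G49850. In this band 8 of the 10 overlapped, and AT4G16410 and AT4G31060 did not.

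How far the 76 genes stand above control depends on the scaling of the arrays. With each array divided by its median, all 76 kept a mean change above 0, with a median of 0.74, and 59 stayed above 0.3 in all 3 sets. Over the 640 probes 13.8% met the difference on that scale. The change of 18 genes moved by more than 1.5 times. It was larger in 8 genes, all in the brightest 25 percent of probes by control level: AT1G03810, AT1G49850, AT2G22890, AT2G26110, AT3G09080, AT4G21170, AT4G25290 and chr31. AT3G09080 stood at 1.29 there, AT2G22890 at 1.04 and AT2G26110 at 0.96. It was smaller in 10 genes, all in the dimmest 25 percent: AT1G17850, AT1G24530, AT1G42960, AT1G50510, AT1G58230, AT1G62780, AT3G14890, AT4G32340, AT5G19210 and CCS. AT1G58230 stood at 0.25 there, CCS at 0.31 and AT1G42960 at 0.15. With the values as deposited the median of the 76 was 0.22, 15 stayed above 0.3 in all 3 sets (3.28% of the 640 probes did), and 17 had a mean change below 0. The median change of all 3439 probes was -0.40 there, 0.00 after quantile normalization and 0.02 after median scaling. Relative to that median the 76 genes stood 0.62 higher with deposited values and 0.72 higher after median scaling.

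The 15 genes were above the limit in every set on all 3 scales. They included AT2G37510, at 1.20 with deposited values, AT1G03810 at 0.85, AT1G51350 at 0.77, AT3G09080 at 0.77, and chr31 at 0.43. Array medians were lower at high iron, so division by them raises the change of every gene with no value at the floor. Such a gene that passed with deposited values therefore passed after median scaling by construction. The lowest deposited changes were those of AT1G58230 at -0.27, AT5G19210 at -0.22 and CCS at -0.21. Among the 17 genes below 0 with deposited values 13 were in the dimmest 25 percent by control level, and among the 15 genes 2 were.

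**Figure D4:**
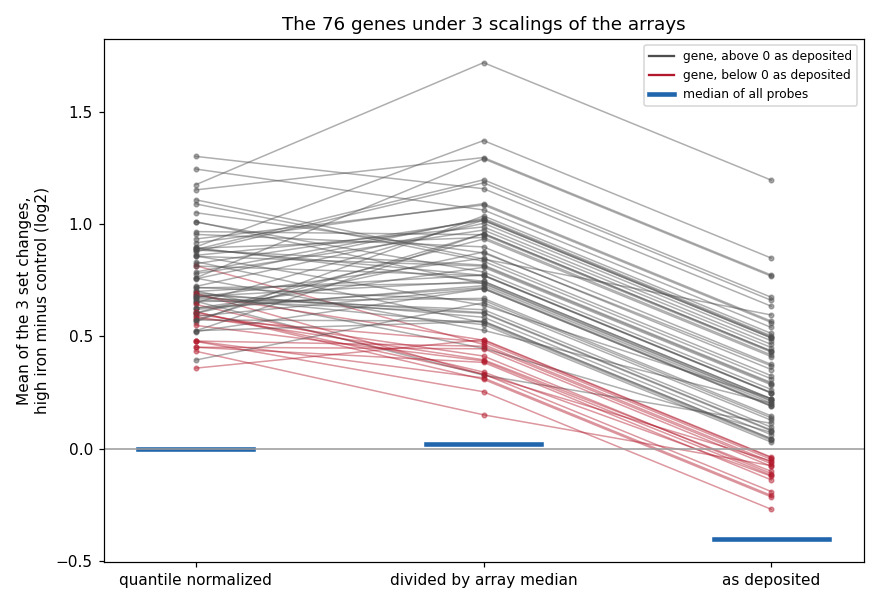
Mean of the 3 set changes (high iron minus control, log2) of each of the 76 genes with quantile normalization, with division by the array median and with deposited values, joined by a line for each gene. Red lines are the 17 genes below 0 with deposited values, and blue bars are the median of all 3439 probes, which stands at -0.40 on the deposited scale.

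With all probes divided into 4 equal classes by control level, 35 of the 76 genes lay in the dimmest, 17 in the second, 15 in the third and 9 in the brightest, which the rule cut short. The dimmest class thus held 46.1% of the 76 genes and 28.4% of the 640 single-gene probes. The control level is itself one side of the change, so a lower level is in part built in. The median changes in the 4 classes, dimmest first, were 0.72, 0.67, 0.72 and 0.60. At least 1 control value lay at the floor in 11 genes. In AT1G11730, AT1G17850 and AT1G42960 5 of 6 control values did, so that their changes are set by the floor, and without these 11 genes the median change of the other 65 was 0.69.

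**Figure D5:**
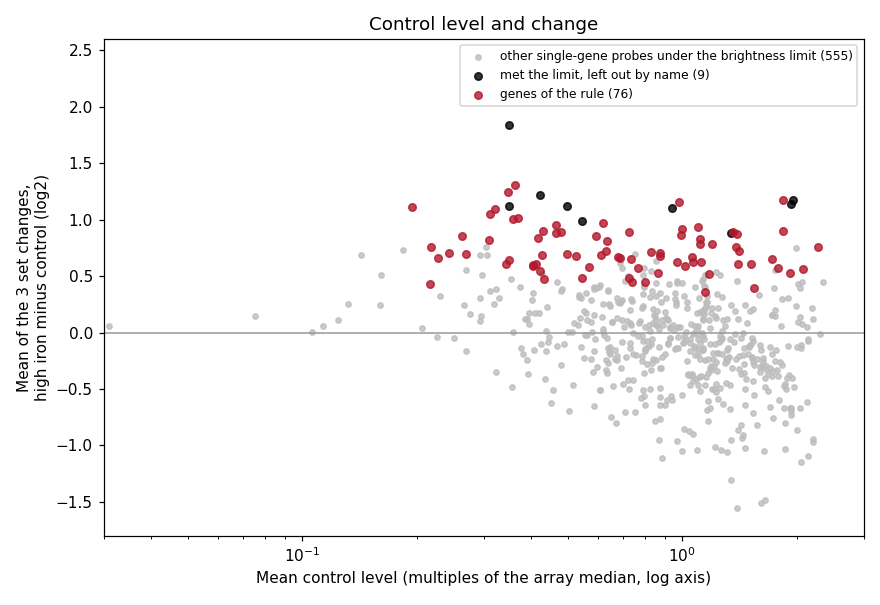
Mean control level (multiples of the array median, log axis) against the mean of the 3 set changes (high iron minus control, log2) for the 640 single-gene probes under the brightness limit, with the 76 genes in red, the 9 left out by name in black and 555 others in grey. Not drawn are 38 probes with a control level under 0.03. The red points spread over control levels between 0.195 and 2.28.

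The locus tags show on which chromosome a gene lies, which the rule did not use. Of the 76 genes 23 lie on chromosome 1, 18 on chromosome 2, 12 on chromosome 3, 19 on chromosome 4 and 4 on chromosome 5. The 4 genes on chromosome 5 are AT5G55580, AT5G55220, AT5G04600 and AT5G19210. They make up 2.92% of the 137 single-gene probes of chromosome 5 under the brightness limit, against 72 of 503, or 14.3%, for the others (2 of them with no chromosome given), a comparison singled out after its values were seen and not tested. The 137 probes had a median control level of 0.828 times the array median and a median change of -0.03, and those of the other chromosomes had median changes between -0.01 and 0.12. The 137 probes lay in all 8 equal stretches of probe numbers, 12 to 25 in each.

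By probe number the share of the 76 genes among single-gene probes under the brightness limit ran between 5.41% and 23.5% over those 8 stretches. The highest share was in the third stretch, with 20 of 85 probes, where the median change of these probes was 0.12. The lowest was in the fifth, with 4 of 74, where it was -0.14. Probe numbers may stand for places on the array, which the sources used here do not say, and the part of the array layout in these changes was not tested. Consecutive numbers were held by CML30 and AT1G11800, by AT1G11730 and AT2G46850, and by AT4G35980 and AT4G01810. In the gene table, which also lists noncoding genes, the closest of the 76 were CHL and AT3G47980, 13 places apart, and AT1G11730 and AT1G11800, 14 places apart.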

How the data were processed

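For each array the authors deposited a linear intensity per probe. The labels do not state the scanner, the background correction or the scaling, so scale and centring are unknown, and the direction is that of the labelled groups. Groups came from the source names and numbers from the sample titles. Genes were named from the platform annotation (692 probes with 1 gene, 870 with several, 1877 with none), updated through the RefSeq gene table of assembly TAIR10.1, which held all 76 genes.

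Arrays were quantile normalized over all probes, and intensities below 0.106, the 5th percentile of those above 0, were raised to it before log2. By itself the floor draws the values of dim probes together. This does not make the changes of dim genes low estimates, as they also depend on the scaling. After median scaling the change was smaller by more than 1.5 times in 10 genes, all dim, and larger in 8, all bright. Samples 1 and 2, 3 and 4, and 5 and 6 of a group were averaged. The brightest 10 percent were taken over all probes, by mean control intensity divided by the array median. The 76 genes and the lists were chosen with earlier results of these data known, and genes of the rule get no test. Other list genes were tested two-sided with limma 3.58.1 under R 4.3.3 (lmFit, then eBayes with trend) over 12 samples, with Benjamini-Hochberg adjustment over all probes at 0.05. Python 3.11.15 was used otherwise. The number of arrays limits the precision.

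Same-numbered samples of the groups deviated together over all probes (correlations 0.52, 0.51, 0.21, 0.13, 0.52 and 0.51 for numbers 1 to 6). Other combinations of numbers between the groups were not compared, and samples of a set resembled each other. A match of whole sets and a pairing of single samples can therefore not be told apart, and the labels state neither. The replicate block counts the samples of a set as separate pairs. Named in full were the 12 largest mean changes, the 4 most even, the 4 brightest and the 3 just inside the limit, beside genes with a descriptive name. Names containing AGAMOUS counted as MADS-box and CK2 as kinase. Of the 21 lists, those for pentatricopeptide, F-box, ribosomal, RNA-handling, transport, mitochondrial and iron-handling genes, plastid ribosomal proteins and root, seed and flower markers had no gene matched by name. Promoter and protein sequences were not used here.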

Additional observations from a re-analysis of the deposited data

Results flagged for a closer look

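In each group of 6 values of the 76 genes, the highest and the lowest sample were compared with the rest on the log2 scale. A sample was taken as apart where its gap to the nearest of the others, divided by the range of the group, passed Dixon's critical value for 6 values. Of 152 groups, 10 had such a sample. For independent values chance flags about 1 in 20 groups, but the samples of a set resemble each other here, so that rate is only a rough guide. In 3 of them the other 5 values lay at the floor, which by itself makes the gap as large as the range: control sample 3 of AT1G11730 at 0.137, control sample 5 of AT1G17850 at 0.138 and control sample 3 of AT1G42960 at 0.117. Control sample 5 of AT1G62780 stood at 0.129, above 0.106 to 0.112. Control sample 2 of AT3G04650 stood at 0.337, above 0.235 to 0.265.

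Control sample 6 was low in 3 genes: AT1G64510 at 0.235, against 0.3002 or more, AT4G31060 at 0.335, against 0.416 or more, and AT2G26110 at 0.647, against 1.04 or more. Among high iron samples, sample 6 of AT2G03390 stood at 1.04, above 0.963 to 0.983, and sample 3 of AT3G14890 stood at 0.361, above 0.197 to 0.233. The causes were not tested.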

How the results depend on the processing

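The count of genes above the limit was 76. It was 15 with deposited values, all of them among the 76, and 41 at a limit of 0.5. It was 79 after median scaling (59 of them among the 76), 107 at a limit of 0.2, 61 with a floor at the 10th percentile, 80 without a floor, 74 with the brightness limit taken over single-gene probes and 79 with bright probes kept. With the replicate numbers as pairs, 58 genes passed the limit in all 6 pairs. The replicate block left the median change at 0.69, as the design is balanced. That median was 0.22 with deposited values. Leaving out 1 sample in turn gave 74 to 80 genes, a median change between 0.68 and 0.73, and 43 to 47 genes without overlap. With deposited values 12 genes had no overlap, in place of 43, an alternative added after seeing the data. The shares of all single-gene probes under the brightness limit without overlap under these alternatives, or above the limit in all 6 pairs, were not counted. Nothing is read from these counts.

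With deposited values 17 genes turned below 0: AT4G32340 (-0.060), AT1G50510 (-0.056), AT5G04600 (-0.041), AT3G14890 (-0.12), AT5G19210 (-0.22), AT1G24530 (-0.19), AT3G20150 (-0.11), AT2G39000 (-0.10), AT3G04650 (-0.048), AT3G47980 (-0.12), AT2G48130 (-0.068), CCS (-0.21), AT1G58230 (-0.27), AT4G19430 (-0.079), IYO (-0.14), AT1G42960 (-0.076) and AT1G06730 (-0.038). The cause was not tested. In these values the median of all probes was -0.40. No gene of the 76 turned below 0 under the other alternatives, but the change moved by more than its SD between sets in 35 genes after median scaling, in 48 of the other 59 with deposited values, in 13 with the higher floor and in 5 without a floor.

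On the whole array limma called 1149 probes over 12 samples, 1892 with deposited values, 491 with the set as a random block, 82 over the 6 averages, 1392 with the replicate block and 1000 to 1172 without 1 sample. The split was 625 higher and 524 lower with quantile normalization, 850 and 436 after median scaling, and 291 and 1601 with deposited values.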
